A study of Homo sapiens with 12 samples.

Results

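The GSK126 response of A549 cells was read from 1 treated and 1 untreated library, 2 of the 12 RNA libraries of the series. A549 is a human lung adenocarcinoma line. The treated culture received GSK126, which blocks the catalytic activity of EZH2, at 50 µM, and the untreated culture is labelled as the normal condition. The same pair of libraries exists for MHCC97H, a hepatocellular carcinoma line, and HCT116, a colorectal carcinoma line, and A549 was also treated with 1 µM TSA (trichostatin A), a histone deacetylase inhibitor, or 100 µM S2101, an inhibitor of the demethylase LSD1. The culture medium was DMEM for A549 and for MHCC97H but RPMI for HCT116, where line and medium therefore cannot be told apart. The sources used here state neither how long the cells were treated nor which vehicle the untreated cultures had. The genes described are the 10257, of 25647 in the tables, that had at least 10 CPM (read counts scaled to the library total) in either A549 library.

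EZH2 is the catalytic subunit of Polycomb repressive complex 2 (PRC2), which methylates lysine 27 of histone H3 and keeps developmental genes silent. GSK126 competes with the methyl donor S-adenosylmethionine at the catalytic site, so it blocks the mark without removing the protein. Several programmes named below have their own regulators: SREBP proteins drive sterol and fatty acid genes when membranes are short of cholesterol, E2F and the DREAM and MuvB complexes time replication and mitosis genes, and the Hippo coactivator YAP drives growth genes through TEAD factors.

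The A549 libraries held 15646893 untreated and 15537069 GSK126 gene counts, and the 12 libraries ranged from 14468304 to 19061367. A floor of 3 reads corresponded to 0.192 and 0.193 CPM in the A549 pair. No condition of A549 was repeated, so a change in A549 has no replicate check and no p-value. Below, a level is in CPM after TMM scaling (trimmed mean of M-values, which evens out library composition), a log2 change is log2(CPM + 1) under GSK126 minus the same untreated, and a fold is the ratio of the CPM values with a 95% exact binomial interval that covers counting error only. Over the 10257 genes, Spearman's rank correlation of levels between the GSK126 and untreated libraries was 0.877 in A549, against 0.973 in MHCC97H and 0.947 in HCT116. These genes were chosen by A549 levels, so the lines are not compared on equal terms here. The correlation was not repeated on genes at 10 CPM in each line. The A549 GSK126 library was nearer to untreated A549 than to untreated MHCC97H (0.777) or HCT116 (0.699). All 10 markers of the A549 line, among them the aldo-keto reductases AKR1C1 to AKR1C3, stayed at or above 10 CPM, but 9 of the 10 were also at 10 CPM in both MHCC97H libraries, against 2 in HCT116. Of 12 lung epithelial markers, 2 (ABCA3 and LPCAT1) reached 10 CPM, and SFTPA1, SFTPA2 and SCGB3A1 were at 0 in both libraries. Summed markers of other cell types went from 41.9 to 37.0 CPM for 13 liver genes, from 32.6 to 91.7 CPM for 12 colon genes, from 54.3 to 90.6 CPM for 7 leukocyte genes, from 14.1 to 9.59 CPM for 7 fibroblast genes and from 2.62 to 2.19 CPM for 5 endothelial genes, with CD3E, CDX1, LGR5, GPA33, DCN, COL1A2, CDH5 and VWF at 0 in both libraries. Summed in the same way, untreated MHCC97H had 96.3 CPM for the 13 liver genes and 1861 CPM for the 12 colon genes. In untreated HCT116 both sums were 14.7 CPM. The tissue given for these lines is the one that goes with their names, and it was not tested. The nuclear long non-coding RNA MALAT1 took 0.3% of the untreated and 0.71% of the GSK126 counts. Its part in the results below was not tested.

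GSK126 was accompanied by a larger change in A549 than in the other lines. At least 2-fold higher under GSK126 were 729 genes (7.11% of the 10257) and at least 2-fold lower were 754 (7.35%). On the same genes, MHCC97H had 180 higher (1.75%) and 24 lower (0.234%), and HCT116 had 309 higher (3.01%) and 209 lower (2.04%). Counts of a list below are to be read beside these shares of all genes in the same line. The standard deviation of the log2 change over genes was 0.74 in A549, 0.39 in MHCC97H and 0.50 in HCT116. Because the 10 CPM rule used A549 levels, the counts were repeated on the 8659 genes with 10 CPM in each line: A549 then had 505 higher and 638 lower, MHCC97H 132 and 17, and HCT116 249 and 189. A gene under 10 CPM untreated passed the rule only through the GSK126 library and so had to be higher: among the 9552 genes at 10 CPM in untreated A549, 448 were higher (4.69%) and 754 lower (7.89%). Scaling to library totals in place of TMM moved the median log2 change of all genes up by 0.10 and the A549 split from 729 higher and 754 lower to 891 and 609.

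The changed genes of A549 were compared with those of the other lines. Of the 729 higher genes, 128 were also at least 2-fold higher in MHCC97H (17.6% of the A549 genes and 71.1% of the MHCC97H genes), 172 in HCT116 (23.6% and 55.7%), and 480 (65.8%) in neither, as were 9829 of all 10257 genes. Of the 754 lower genes, 18 were also lower in MHCC97H (2.4% and 75.0%), 154 in HCT116 (20.4% and 73.7%), and 588 (78.0%) in neither, as were 10030 of all genes. Since MHCC97H had 180 and 24 such genes in all, most A549 genes could not be shared with it by this rule. The direction recurred more widely than the size, since 87.8% of the A549-higher genes were above 0 in MHCC97H and 85.9% in HCT116, where 44.5% and 48.5% of all genes were. Of the A549-lower genes, 89.4% and 86.3% were below 0, where 55.0% and 50.8% of all genes were. Across genes, which are not independent replicates, the log2 changes of A549 correlated with those of MHCC97H at Pearson's r = 0.633 and Spearman's rho = 0.615, and with those of HCT116 at 0.617 and 0.617. The genes nearest the threshold were AKAP9 (log2 change 1.00) and LMBRD1 (1.00) just inside and TMF1 and MMAB just outside on the higher side, and C20orf27 and TXNRD2 inside and PWP2 and C9orf142 outside on the lower side.

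**Figure D1:**
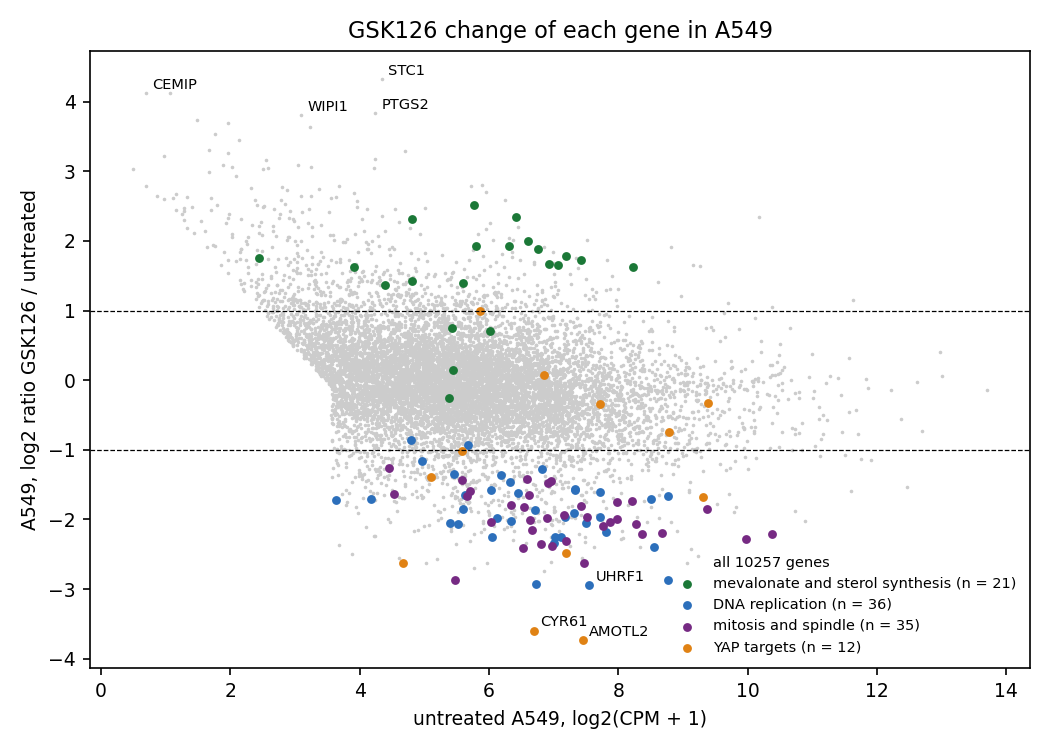
Each point is 1 of the 10257 genes, with its level in the untreated A549 library on the x axis, as log2(CPM + 1), and its log2 ratio of GSK126 to untreated A549 on the y axis; the dashed lines mark 2-fold. Sterol synthesis genes lie above the cloud, with 17 of 21 past 2-fold, and 34 of 36 replication genes and all 35 mitosis genes lie below the lower line.

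EZH2, the drug's target, was itself lower. It lies on chromosome 7 (148807383 to 148884291 of GRCh38). EZH2 had 62.5 CPM untreated and 23.1 CPM under GSK126 in A549, 67.1 and 46.6 CPM in MHCC97H, and 110 and 71.2 CPM in HCT116. Its A549 level was 2.70-fold lower (2.39 to 3.06), the largest of the 3 changes, and its GSK126 level was below the untreated one in each line. Of 11 PRC2 subunits and cofactors, 3 were at least 2-fold lower (EZH2, the accessory subunit PHF19 at a log2 change of -1.35, and the core subunit EED at -1.01, which was -0.91 under library totals), and 1 was higher, PHF1 (1.12), where 7.35% and 7.11% of all genes were. SUZ12, the scaffold of the complex, changed by -0.61 and EZH1, the paralogous catalytic subunit, by 0.49, both under 2-fold. EZH2 is also an E2F target of dividing cells, and replication and mitosis genes were lower in the same library, as given further on; their part in the EZH2 level was not tested.

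Few genes described as repressed by EZH2 could be followed in A549. Of 28 such genes, 14 had 10 CPM in A549, and 3 of these were higher, where 7.11% of all genes were: the ubiquitin ligase subunit FBXO32 (21.2 and 75.9 CPM), the retinoic acid receptor RARB (33.9 and 73.5 CPM) and the WNT antagonist SFRP1 (59.0 and 121 CPM). FBXO32 was also higher in MHCC97H (log2 change 1.47) and HCT116 (1.53), and RARB was higher in MHCC97H (2.33) and HCT116 (1.33). SFRP1 was near 0 CPM in both other lines. SFRP1 fell short of 2-fold with a pseudocount of 5 (0.97). DKK1, another WNT antagonist of the list, went the other way, from 215 to 52.4 CPM, which was 4.10-fold lower (3.79 to 4.43). The list's median log2 change was 0.49, where the median of all genes was -0.05. Of 39 HOX genes, classic PRC2 targets, HOXA3 alone reached 10 CPM, at 21.8 and 18.4 CPM.

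The largest increases were led by STC1, CEMIP, IL8 and PTGS2. STC1, a secreted calcium and phosphate regulator, had 280 reads (19.3 CPM) untreated and 6296 reads (406 CPM) under GSK126, 21.1-fold more (18.7 to 23.8), and was near 0 CPM in the other lines. CEMIP, a hyaluronan-binding protein (chromosome 15, 80779370 to 80951771 of GRCh38), had 9 reads (0.619 CPM) and 422 reads (27.2 CPM) in A549, 74.1 and 148 CPM in MHCC97H, and 5.77 and 6.57 CPM in HCT116. IL8, the neutrophil chemokine also called CXCL8, had 1.10 and 35.6 CPM in A549, 1.82 and 2.32 CPM in MHCC97H, and 0.641 and 41.5 CPM in HCT116. PTGS2, the inducible cyclooxygenase, had 17.9 and 268 CPM in A549, 11.1 and 52.3 CPM in MHCC97H, and 1.69 and 0.948 CPM in HCT116. IL8 was thus high under GSK126 in A549 and HCT116, and PTGS2 in A549 and MHCC97H. Others among the 15 largest increases were WIPI1, TCP11L2, the nuclear receptor NR4A2, the glycolytic aldolase ALDOC, the bradykinin receptor BDKRB2, the pro-apoptotic BMF, the retinol dehydrogenase RDH10, the ammonium channel RHCG, RAB37 and the acetyl-CoA synthetase ACSS2, at log2 changes from 3.81 (WIPI1) down to 3.18 (ACSS2).

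Cholesterol synthesis was higher almost throughout. Of 21 mevalonate and sterol synthesis genes, all at 10 CPM, 17 were at least 2-fold higher and 0 lower, with a median log2 change of 1.68, against 1.26 in MHCC97H (14 higher) and 1.41 in HCT116 (16 higher). Of the 20 at 10 CPM in untreated A549, 16 were higher. MVD, the mevalonate diphosphate decarboxylase, had 27.1 and 139 CPM in A549, 22.3 and 68.7 CPM in MHCC97H, and 51.7 and 196 CPM in HCT116. MSMO1, a sterol methyl oxidase, had 53.4 and 311 CPM in A549, 131 and 331 CPM in MHCC97H, and 33.6 and 199 CPM in HCT116. DHCR7, which makes cholesterol from its last precursor, had 96.3 and 387 CPM. Each of these 3 was at least 2-fold higher in each line. The exceptions in A549 were PMVK (-0.25), GGPS1 (0.15), EBP (0.71) and NSDHL (0.74), named after their values were seen.

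The sterol sensing and uptake genes were higher too, by more in A549 than in MHCC97H. Of 12 members at 10 CPM, 8 were at least 2-fold higher in A549, 2 in MHCC97H and 6 in HCT116, with medians of 1.44, 0.47 and 1.04. Of the 11 at 10 CPM in untreated A549, 7 were higher. INSIG1, which holds SREBP in the endoplasmic reticulum and is itself an SREBP target, had 60.9 and 402 CPM in A549, 112 and 400 CPM in MHCC97H, and 39.7 and 317 CPM in HCT116. STARD4, a cholesterol carrier, had 15.8 and 72.8 CPM in A549, 24.0 and 32.5 CPM in MHCC97H, and 23.5 and 76.6 CPM in HCT116. INSIG1 was at least 2-fold higher in each line, and STARD4 in A549 and HCT116. Of 9 LXR target and cholesterol efflux genes, which sterol excess switches on, 5 were at 10 CPM and 1 was higher, ABCA7 (12.7 and 28.7 CPM).

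Promoters of the sterol genes are shown for the CCAAT box, the site of NF-Y, a factor known to act with SREBP. RefSeq promoters (GRCh38.p14) were matched for 26 of the 33 members, and the 250 bases before the gene start held CCAAT on either strand in 16 of them (61.5%), against 35.3% of 8373 matched genes at 10 CPM and 33.0% of 27305 promoters. INSIG1, MSMO1 and MVD, the members with the box and the largest A549 changes, are printed 5′ to 3′ along the gene, with CCAAT or its reverse complement ATTGG in capitals.
INSIG1 (chr7:155297628-155297877, plus strand): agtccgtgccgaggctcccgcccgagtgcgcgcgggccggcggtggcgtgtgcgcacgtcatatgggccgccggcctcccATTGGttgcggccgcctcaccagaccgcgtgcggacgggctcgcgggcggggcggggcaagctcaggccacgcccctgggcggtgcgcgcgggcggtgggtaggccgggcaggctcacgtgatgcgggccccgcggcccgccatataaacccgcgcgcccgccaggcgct
MSMO1 (chr4:165327419-165327668, plus strand): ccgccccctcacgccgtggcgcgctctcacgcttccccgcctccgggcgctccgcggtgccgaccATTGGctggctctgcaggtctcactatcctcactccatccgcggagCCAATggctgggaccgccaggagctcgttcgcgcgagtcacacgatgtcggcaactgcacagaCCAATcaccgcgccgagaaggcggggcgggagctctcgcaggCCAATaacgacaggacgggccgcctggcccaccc
MVD (chr16:88663092-88663341, minus strand): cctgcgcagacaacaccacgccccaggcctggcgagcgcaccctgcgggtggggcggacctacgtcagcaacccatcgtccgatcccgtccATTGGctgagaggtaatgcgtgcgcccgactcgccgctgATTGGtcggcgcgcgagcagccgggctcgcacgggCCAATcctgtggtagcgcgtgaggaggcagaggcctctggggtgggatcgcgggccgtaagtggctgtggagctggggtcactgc
MSMO1 held 4 copies, MVD 3 and INSIG1 1, and their log2 changes were 2.52, 2.32 and 2.70 in A549. Binding was not measured, and a match describes only these letters in this window.

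Fatty acid synthesis followed in part. Of 17 genes, 8 were at least 2-fold higher and 0 lower in A549, with a median of 0.98. ACSS2, which makes acetyl-CoA from acetate, had 18 and 171 CPM in A549, 44.0 and 182 CPM in MHCC97H, and 26.7 and 135 CPM in HCT116. SCD, the stearoyl-CoA desaturase, had 1150.4 and 5839 CPM in A549, 983 and 1889 CPM in MHCC97H, and 1449.7 and 6258 CPM in HCT116. LPIN1, a phosphatidate phosphatase, and FADS1, a fatty acid desaturase, had log2 changes of 2.01 and 1.91.

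Genes of DNA replication were lower with 2 exceptions. Of 36, all at 10 CPM, 34 were at least 2-fold lower in A549, 2 in MHCC97H and 32 in HCT116, with medians of -1.86, -0.57 and -1.29. The A549 change was the lowest of the 3 lines for 34 of the 36. UHRF1, which recruits the maintenance DNA methyltransferase to new DNA, had 187 and 23.3 CPM in A549, 220 and 152 CPM in MHCC97H, and 302 and 116 CPM in HCT116. MCM10, which helps start the replicative helicase, had 105 and 13.0 CPM in A549, 67.0 and 34.1 CPM in MHCC97H, and 97 and 35.7 CPM in HCT116. RRM2, the regulated subunit of ribonucleotide reductase, had 437 and 59.0 CPM in A549, 151 and 79.6 CPM in MHCC97H, and 502 and 206 CPM in HCT116. For these 3 the A549 GSK126 level was the lowest of the 6 libraries. UHRF1 was 8.0-fold lower (7.17 to 8.96), MCM10 8.08-fold (6.97 to 9.40) and RRM2 7.40-fold (6.90 to 7.94). The 2 members under 2-fold were CDT1 (-0.93) and CCNE1 (-0.86), named after their values were seen.

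Replication promoters are shown for TTTNNCGC, a form of the E2F site. The 250 bases before the start held it on either strand in 15 of 31 matched members (48.4%), against 9.7% of the 8373 matched genes at 10 CPM and 5.9% of all 27305. UHRF1 and GINS2 (a helicase subunit, 65.4 and 13.0 CPM) are printed as the members with the largest decreases that hold it in the 150 bases given; capitals mark the motif, on either strand.
UHRF1 (chr19:4909351-4909500, plus strand): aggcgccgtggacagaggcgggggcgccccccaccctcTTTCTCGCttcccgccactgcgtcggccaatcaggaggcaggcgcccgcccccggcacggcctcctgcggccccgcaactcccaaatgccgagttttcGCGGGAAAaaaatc
GINS2 (chr16:85688955-85689104, minus strand): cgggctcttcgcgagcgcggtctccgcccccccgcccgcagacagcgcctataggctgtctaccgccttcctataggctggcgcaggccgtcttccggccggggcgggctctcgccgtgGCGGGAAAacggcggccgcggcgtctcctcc
In UHRF1 the first bases of the 2 matches lay 112 and 14 bases before the start, and in GINS2 the match lay 31 bases before it. For UHRF1 this start is that of the promoter entry used. The annotated span of the gene begins further upstream, at 4903080 of GRCh38, so the printed bases lie inside that span.

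Mitosis genes were lower without exception. All 35 spindle and mitosis genes were at least 2-fold lower in A549, against 0 in MHCC97H and 3 in HCT116, with medians of -1.98, -0.41 and -0.87. In each of the 35 the A549 change was the lowest of the 3 lines. CDC20, the activator of the anaphase-promoting complex, had 2564 reads (176 CPM) untreated and 432 reads (27.8 CPM) under GSK126 in A549, 92.1 and 62.5 CPM in MHCC97H, and 253 and 137 CPM in HCT116. The kinase AURKB had 125 and 23.2 CPM in A549, 60.5 and 53.7 CPM in MHCC97H, and 96.8 and 49.7 CPM in HCT116. The kinesin KIF20A had 91.1 and 16.3 CPM in A549, 49.5 and 42.6 CPM in MHCC97H, and 109 and 49.8 CPM in HCT116. CDCA3, which triggers degradation of the mitotic inhibitor WEE1, had 43.3 and 5.09 CPM in A549, the lowest log2 change of the list at -2.86. In each of these 3 with all values given, the A549 GSK126 library was the lowest of the 6. Fewer dividing cells and less RNA of these genes per cell cannot be told apart in bulk libraries.

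Mitosis promoters are shown for TTTGAA, the core of the cell cycle homology region that MuvB complexes read. It lay within 250 bases before the start, on either strand, in 17 of 30 matched members (56.7%), against 8.1% of the 8373 matched genes at 10 CPM and 13.6% of all 27305. CDC20, MKI67, ANLN, BUB1B and CDCA8 are printed as the members with the largest decreases that hold it in the 120 bases before the start, with TTTGAA or its reverse complement TTCAAA in capitals.
CDC20 (chr1:43358861-43358980, plus strand): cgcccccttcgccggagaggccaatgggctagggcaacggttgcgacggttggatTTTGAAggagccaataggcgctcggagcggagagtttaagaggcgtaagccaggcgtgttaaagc
MKI67 (chr10:128126424-128126543, minus strand): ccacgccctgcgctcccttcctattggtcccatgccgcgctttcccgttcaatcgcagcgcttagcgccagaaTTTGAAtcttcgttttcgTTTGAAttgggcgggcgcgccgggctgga
ANLN (chr7:36389742-36389861, plus strand): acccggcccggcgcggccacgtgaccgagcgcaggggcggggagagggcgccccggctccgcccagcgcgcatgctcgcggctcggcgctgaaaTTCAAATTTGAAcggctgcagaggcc
BUB1B (chr15:40160949-40161068, plus strand): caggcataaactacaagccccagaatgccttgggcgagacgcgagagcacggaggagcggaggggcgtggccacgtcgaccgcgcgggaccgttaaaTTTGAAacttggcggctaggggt
CDCA8 (chr1:37692396-37692515, plus strand): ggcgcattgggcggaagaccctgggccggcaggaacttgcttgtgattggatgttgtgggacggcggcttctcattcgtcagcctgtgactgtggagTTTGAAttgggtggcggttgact
The motif began 65 bases before the start in CDC20, 47 and 29 in MKI67 and 23 in BUB1B and CDCA8, and in ANLN the copies on opposite strands began 26 and 20 bases before it. The log2 changes in A549 were -2.62 for CDC20, -2.29 for the proliferation antigen MKI67, -2.21 for the cytokinesis scaffold ANLN, -2.15 for the checkpoint kinase BUB1B and -2.04 for CDCA8, a chromosomal passenger protein.

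Other growth genes were lower with them. Of 9 G1 cyclins, kinases and CDK inhibitors at 10 CPM, 5 were lower and 1 higher. CCND3, a D-type cyclin, had 155 and 39.1 CPM, and CDK2 77.5 and 23.8 CPM. The inhibitor CDKN1A (p21), named after its value was seen, was higher, at 44.0 and 94.5 CPM (log2 change 1.08). Of 17 tubulins, 10 were lower and 0 higher, with a median of -1.21. TUBB4B had 599 and 103 CPM in A549, 355 and 248 CPM in MHCC97H, and 384 and 238 CPM in HCT116. Tubulin genes are near-identical and how shared reads were counted is not known from the labels, so the split between members is uncertain. Histone variants H2AFX (135 and 29.3 CPM) and H2AFZ (407 and 137 CPM) were the 2 of 13 histone genes past 2-fold, both lower, where 7.35% of all genes were.

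**Figure D2:**
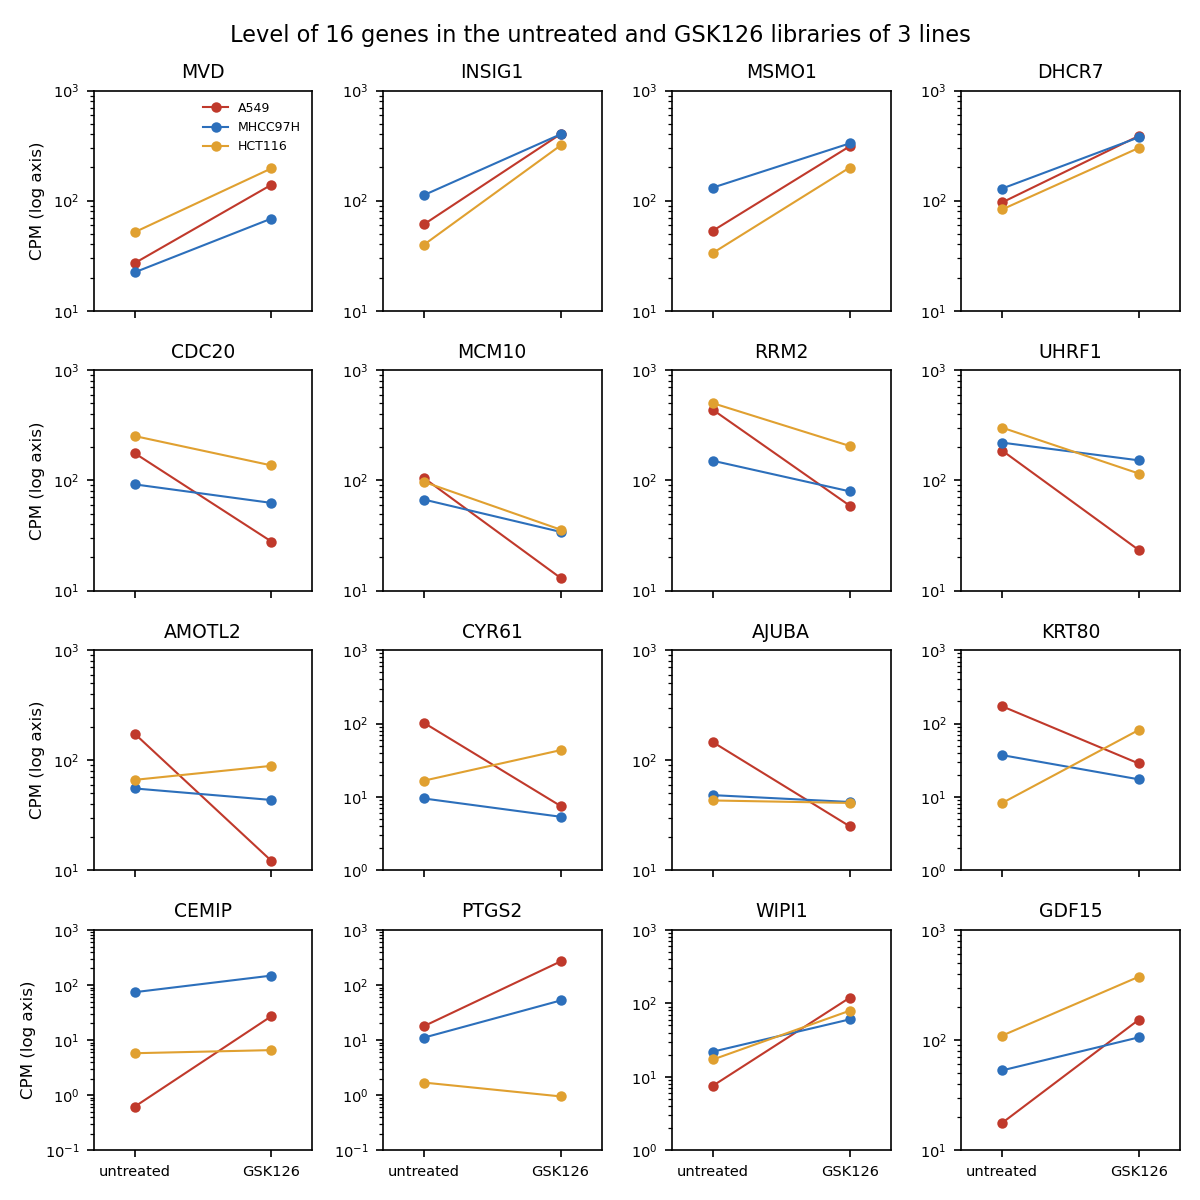
Levels of 16 genes in the untreated and GSK126 libraries of A549 (red), MHCC97H (blue) and HCT116 (yellow), in TMM-scaled CPM on log axes, 1 library per point. Sterol genes in the top row climb in each line, while the second-row replication and mitosis genes and AMOTL2 reach their lowest level in the A549 GSK126 library.

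YAP target genes held the 2 largest decreases of single genes, AMOTL2 and CYR61. Of 12 at 10 CPM, 7 were at least 2-fold lower in A549 and 0 in MHCC97H and HCT116, where HCT116 had 2 higher. The medians were -1.20, -0.25 and 0.32. AMOTL2, an angiomotin that binds YAP (chromosome 3, 134355345 to 134375417 of GRCh38), had 2523 reads (174 CPM) untreated and 189 reads (12.2 CPM) under GSK126 in A549, 55.4 and 43.6 CPM in MHCC97H, and 66.4 and 88.9 CPM in HCT116. It was 14.2-fold lower (12.3 to 16.6) in A549, the largest decrease of all genes at 10 CPM. CYR61, the matricellular protein CCN1, had 102 and 7.54 CPM in A549, 9.53 and 5.37 CPM in MHCC97H, and 16.7 and 43.4 CPM in HCT116. ANKRD1, a nuclear ankyrin protein, had 24.4 and 3.09 CPM in A549 and under 2 CPM in the other 4 libraries. AJUBA, a LIM protein that restrains Hippo kinases, had 146 and 25.1 CPM in A549, 48.2 and 41.8 CPM in MHCC97H, and 43.1 and 40.9 CPM in HCT116. YAP1 itself, which the list counts among its 12 members at 10 CPM, had 114 and 120 CPM. Its partner TEAD1 had 438 and 260 CPM, and both were named after their values were seen. Untreated A549 was above the other 4 libraries for AMOTL2, CYR61 and AJUBA, and under GSK126 it was the lowest of the 6 for AMOTL2 and AJUBA.

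Promoters of YAP targets are shown for GGAATG, the TEAD site. The 250 bases before the start held it on either strand in 3 of 9 matched members (33.3%), ANKRD1, CTGF and YAP1, against 8.7% of the 8373 matched genes at 10 CPM and 11.9% of all 27305. YAP1 is the coactivator itself, and its log2 change in A549 was 0.07. AMOTL2, CYR61 and AJUBA were not among the 3. ANKRD1 and CTGF (CCN2, 33.5 and 12.2 CPM) are printed as the decreased members with the motif, which is in capitals.
ANKRD1 (chr10:90921088-90921337, minus strand): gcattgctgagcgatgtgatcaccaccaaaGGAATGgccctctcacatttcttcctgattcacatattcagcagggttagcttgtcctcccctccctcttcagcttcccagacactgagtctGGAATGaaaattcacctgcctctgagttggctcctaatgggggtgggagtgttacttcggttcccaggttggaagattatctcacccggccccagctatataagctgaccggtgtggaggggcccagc
CTGF (chr6:131951373-131951622, minus strand): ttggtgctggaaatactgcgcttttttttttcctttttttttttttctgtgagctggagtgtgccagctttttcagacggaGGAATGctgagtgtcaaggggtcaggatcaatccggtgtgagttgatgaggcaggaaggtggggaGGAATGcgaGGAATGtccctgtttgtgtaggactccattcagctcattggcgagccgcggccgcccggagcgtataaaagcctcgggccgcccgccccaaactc
CTGF held 3 copies, 2 of them within 10 bases of each other at 104 and 95 bases before the start, and ANKRD1 held 2.

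TGF-beta response genes held further decreases. Of 18 at 10 CPM, 4 were lower and 1 higher, where 7.35% and 7.11% of all genes were. Of the 17 at 10 CPM in untreated A549, 4 were lower and 0 higher. The ligand TGFB2 had 130 and 31.9 CPM in A549 and 125 and 115 CPM in MHCC97H, and the inhibitory SMAD7 34.8 and 12.7 CPM in A549. FST, a secreted activin antagonist, was higher, at 3.78 and 17.5 CPM. At least 2-fold lower in A549 and at least 2-fold higher in HCT116 were 8 genes, among them CYR61, CTGF, TAGLN, KRT7, KRT80, SGK2 and ANKRD33B. KRT80 had 172 and 28.6 CPM in A549 and 8.27 and 81.8 CPM in HCT116, and KRT7 2892 and 1373 CPM in A549 and 29.9 and 125 CPM in HCT116. Under scaling to library totals the A549 change of KRT7 fell short of 2-fold. ARID5B and DYRK1B went the opposite way, and 0 genes were past 2-fold in opposite directions in A549 and MHCC97H.

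Stress genes were higher in part of each pathway. Of 35 ATF4 target genes at 10 CPM, 12 were higher and 1 lower in A549, 4 higher in MHCC97H and 1 in HCT116. Of the 30 at 10 CPM in untreated A549, 7 were higher. The pseudokinase TRIB3 had 86.5 and 401 CPM in A549, 211 and 274 CPM in MHCC97H, and 122 and 147 CPM in HCT116. KLHL24 (9.36 and 68.6 CPM), the transcription factor ATF3 (5.71 and 32.5 CPM) and CHAC1, which degrades glutathione (1.24 and 11.2 CPM), were also higher. The amino acid transporter SLC7A5 was the 1 lower member, at 3083 and 1019 CPM, while SLC38A2, another transporter, was higher at 226 and 748 CPM. Of 22 genes of the unfolded protein response, 6 were higher and 0 lower: ERN1, its sensor kinase IRE1, had 4.68 and 45.4 CPM in A549, 14.7 and 27.9 CPM in MHCC97H, and 16.6 and 25.2 CPM in HCT116. The co-chaperone DNAJB9 (10.5 and 60.6 CPM) and the degradation factors HERPUD1 (29.6 and 130 CPM) and SYVN1 (31.7 and 90.3 CPM) were higher as well. The list's median was 0.27, and 9 of the 22 were below their untreated level. Of the 20 members at 10 CPM in untreated A549, which leaves out ERN1, 4 were higher and 0 lower. Of 16 heat shock genes, HSP90AA1 (-1.15) and HSPE1 (-1.12) were lower and 0 were higher, where 7.35% and 7.11% of all genes were.

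Hypoxia genes and a few glycolytic genes were higher. Of 18 hypoxia response genes at 10 CPM, 11 were higher and 0 lower in A549, against 1 higher in MHCC97H and 3 in HCT116, with medians of 1.10, 0.13 and 0.59. Of the 17 at 10 CPM in untreated A549, 10 were higher. PDK1, which diverts pyruvate from mitochondria, had 13.3 and 46.1 CPM in A549, 66.1 and 79.8 CPM in MHCC97H, and 18.3 and 22.5 CPM in HCT116. The mitophagy receptor BNIP3L (72.6 and 258 CPM), NDRG1 (102 and 333 CPM) and the glucose transporter SLC2A3 (23.7 and 78.2 CPM) were also higher. Of 19 glycolysis genes, 3 were higher (ALDOC, HK2 and ENO2), and the list's median was -0.11. ENO2 alone of the 3 had 10 CPM untreated. ALDOC had 2.41 and 38.6 CPM in A549, 6.30 and 14.9 CPM in MHCC97H, and 25.7 and 45.3 CPM in HCT116. Hexokinase HK2 had 6.81 and 37.9 CPM in A549, 1.12 and 2.45 CPM in MHCC97H, and 106 and 99.2 CPM in HCT116. Among 10 PPAR target and lipid droplet genes, PDK4 (1.89), the lipid droplet coat protein PLIN2 (1.59) and ANGPTL4 (1.23) were higher and the fatty acid carrier FABP5 (-1.24) was lower. PLIN2 had 47.8 and 146 CPM in A549 and was lower than untreated in MHCC97H (104 and 85.3 CPM) and HCT116 (17.2 and 16 CPM).

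Death and clearance genes were higher at single members. Of 22 p53 target genes, 5 were higher and 2 lower (median 0.16). Of the 18 at 10 CPM in untreated A549, 2 were higher and 2 lower (median -0.15). The cytokine GDF15 had 17.7 and 153 CPM in A549, 53 and 106 CPM in MHCC97H, and 110 and 376 CPM in HCT116. BBC3 (PUMA), a BH3-only death protein, had 3.23 and 31.3 CPM in A549, and the kinase PLK2 321 and 60.4 CPM. BMF and BBC3 were the 2 of 11 BCL2 family genes past 2-fold, and both were under 10 CPM untreated. BMF had 2.20 and 30.7 CPM in A549, 15.4 and 57.4 CPM in MHCC97H, and 3.32 and 5.41 CPM in HCT116. Of 18 autophagy genes, 5 were higher and 0 lower: WIPI1, a phosphoinositide reader of the forming autophagosome, had 7.57 and 119 CPM in A549, 22.0 and 60.5 CPM in MHCC97H, and 17.2 and 79.3 CPM in HCT116. GABARAPL1 (18.4 and 80.6 CPM), OPTN (68.0 and 223 CPM) and ATG2A (27.3 and 77.9 CPM) were among the others. Of the 17 autophagy genes at 10 CPM in untreated A549, 4 were higher and 0 lower. Of 31 lysosome genes, 5 were higher and 0 lower, where 7.11% and 7.35% of all genes were, and the list's median was 0.47. The higher ones included the sialidase NEU1 (22.4 and 127 CPM), the proteases CTSL (571 and 1802 CPM) and CTSD (248 and 554 CPM), and the lipase LIPA (82.8 and 182 CPM).

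Immediate early genes were higher in most members. Of 17 AP-1 and immediate early genes at 10 CPM, 14 were higher and 0 lower in A549, 4 in MHCC97H and 10 in HCT116, with medians of 1.66, 0.54 and 1.18. Of the 11 at 10 CPM in untreated A549, 8 were higher, with a median of 1.22. EGR1 had 9 reads (0.619 CPM) untreated and 158 reads (10.2 CPM) under GSK126 in A549, 42.0 and 31.0 CPM in MHCC97H, and 94.9 and 106 CPM in HCT116. FOS had 2.27 and 19 CPM in A549, 9.74 and 8.16 CPM in MHCC97H, and 8.45 and 16.2 CPM in HCT116. NR4A2 had 2.89 and 49.2 CPM in A549, 0.911 and 2.98 CPM in MHCC97H, and 12.1 and 69.4 CPM in HCT116. Untreated A549 was the lowest of the 6 libraries for EGR1 and FOS. Of 14 ERK feedback genes, 5 were higher and 1 lower. The higher ones included the phosphatases DUSP5 (61.1 and 278 CPM), DUSP6 (7.02 and 31.1 CPM) and DUSP4 (232 and 577 CPM) and the inhibitor SPRY4 (8.60 and 29.4 CPM). Of the 10 ERK feedback genes at 10 CPM in untreated A549, 3 were higher and 1 lower. Of all genes at that level, 4.69% were higher and 7.89% lower. DUSP6 had 231 and 214 CPM in MHCC97H and 93.7 and 63.5 CPM in HCT116, above A549 in each condition.

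Inflammatory genes were higher for some members. Of 14 NF-kB subunits and feedback genes, 5 were higher and 0 lower in A549, and 5 members, not all of them the same, were higher in each of the other lines. Of the 11 at 10 CPM in untreated A549, 3 were higher. ICAM1, an adhesion receptor for leukocytes, had 1.24 and 13.3 CPM in A549, 163 and 225 CPM in MHCC97H, and 4.95 and 8.19 CPM in HCT116. The inhibitors TNFAIP3 (8.60 and 43.3 CPM) and NFKBIA (52.9 and 149 CPM) and the subunit RELB (23.2 and 59.9 CPM) were higher. Of 8 chemokines and inflammatory genes at 10 CPM, IL8, PTGS2, CXCL1 (3.58 and 10.4 CPM) and LIF (97.5 and 226 CPM) were at least 2-fold higher. The other 11 of the 19 listed members were under 10 CPM, and IL8 and CXCL1 passed 10 CPM through the GSK126 library, where they are high; of the 5 at 10 CPM untreated, 2 were higher. Of 10 interferon-stimulated genes, STAT2 (20.4 and 63.2 CPM) and ISG20 (6.12 and 19.2 CPM) were higher and OAS3 (117 and 49.5 CPM) was lower. Of the 6 at 10 CPM in untreated A549, 1 was higher and 1 lower, where 4.69% and 7.89% of all genes at that level were.

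Surface and matrix genes changed in both directions. Of 18 integrins and laminins at 10 CPM, 5 were higher and 0 lower, where 7.11% and 7.35% of all genes were. Of the 16 at 10 CPM in untreated A549, 3 were higher, with a median of 0.18, where 4.69% of all genes at that level were higher. The collagen receptor subunit ITGA2 had 75.1 and 455 CPM in A549, 130 and 160 CPM in MHCC97H, and 53.4 and 116 CPM in HCT116. ITGAX (5.92 and 40.5 CPM), the vitronectin receptor subunit ITGB3 (3.44 and 15 CPM) and the laminin chain LAMA3 (85.1 and 212 CPM) were also higher. Of 15 collagens, COL4A3 (5.30 and 26.7 CPM) and COL4A4 (16.7 and 41.1 CPM) were higher while COL4A1 (112 and 36.9 CPM) and COL5A1 (170 and 70.1 CPM) were among 3 lower. Of the 14 collagens at 10 CPM in untreated A549, 1 was higher and 3 were lower. Of all genes at that level, 4.69% were higher and 7.89% lower. KRT19 (88.8 and 295 CPM) was the 1 higher keratin of 9, and KRT80 and KRT7 the 2 lower ones, where 7.11% and 7.35% of all genes were. KRT7 fell short of 2-fold under library totals. Of 11 neuronal and neurosecretory genes, 4 were higher (1 of them at 10 CPM untreated), among them the granin CHGB (4.33 and 29.5 CPM) and the vesicle calcium sensor SYT1 (9.63 and 48.6 CPM), and TUBB3 (237 and 91.6 CPM) was lower.

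Cytosolic ribosomal, respiratory and antioxidant genes stayed inside 2-fold. None of 77 cytosolic ribosomal protein genes, 76 oxidative phosphorylation genes and 30 NRF2 target genes was past 2-fold in A549, with medians of -0.07, -0.38 and -0.02, of which the first and the last changed sign under scaling to library totals (0.04 and 0.08). Inside that limit, 74 of the 76 oxidative phosphorylation genes were below and 2 above their untreated level in A549. The numbers were the same in HCT116, and 49 and 27 in MHCC97H. In HCT116, 9 of the 30 NRF2 targets were at least 2-fold higher. Of 75 mitochondrial ribosomal protein genes, 4 were lower, led by MRPL12 (175 and 64.2 CPM), where 7.35% of all genes were, and 0 were higher; the list's median was -0.58. Under scaling to library totals MRPL42, MRPL4 and MRPL35 fell short of 2-fold.

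**Figure D3:**
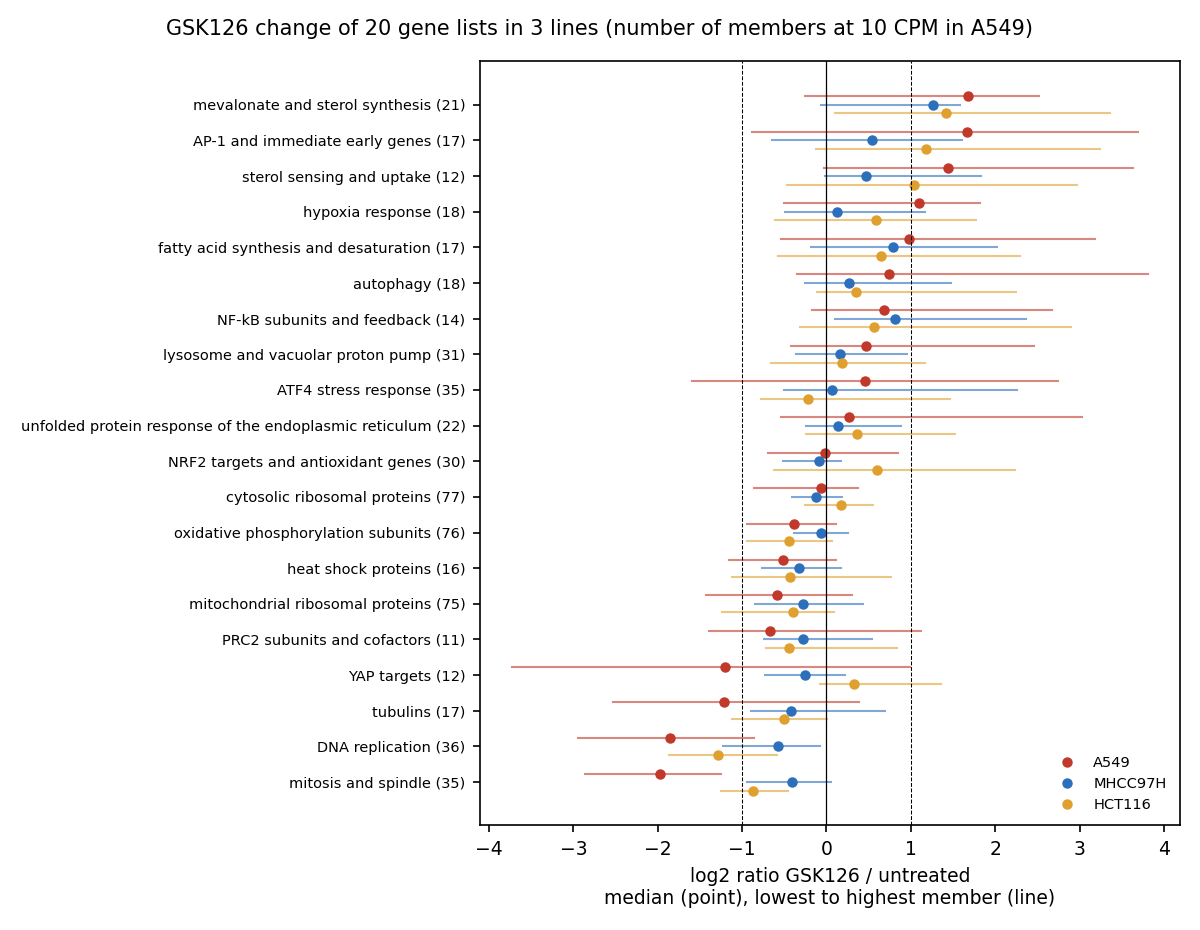
Median log2 ratio of GSK126 to untreated (points) and the range over members (lines) of 20 gene lists in A549 (red), MHCC97H (blue) and HCT116 (yellow), with the number of members at 10 CPM in brackets; dashed lines mark 2-fold. The A549 median is the outermost for the sterol, immediate early, hypoxia, replication and mitosis lists, and YAP targets lie at -1.20 in A549 and 0.32 in HCT116.

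Whether the A549 change differed from that of the other lines was tested with edgeR's quasi-likelihood test of an A549-by-GSK126 term over the 6 untreated and GSK126 libraries. The term is the A549 log2 change minus the mean change of MHCC97H and HCT116, on the model's scale without the pseudocount, so it exceeds the plotted differences for genes of low level. With 1 residual degree of freedom, its spread rests on how far MHCC97H and HCT116 differ from each other, moderated over 14530 genes, and not on repeat cultures. At an adjusted p under 0.05, the A549 change was higher for 82 genes (0.564%) and lower for 52 (0.358%). Of the 82, 81 were at least 2-fold higher in A549 and 59 were under 2-fold in both other lines, with median log2 changes of 2.33 in A549, 0.29 in MHCC97H and 0.14 in HCT116. Of the 52, 47 were at least 2-fold lower in A549 and 37 under 2-fold in both others, with medians of -2.15, -0.14 and 0.09. The test itself favours genes with a large A549 change and similar changes in the other lines. These counts and medians thus describe the selected genes and are not separate evidence. DESeq2 called 26 and 29 genes. With the S2101 libraries, or S2101 and TSA libraries, added to the fit, 0 genes were called, and in those fits the term is set against other A549 libraries too.

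The smallest adjusted p belonged to AMOTL2, whose A549 change was 3.87 log2 units below that of the other lines (term -3.87, SE 0.40, adjusted p = 0.000113). CEMIP had a term of 4.78 (SE 0.53, adjusted p = 0.000167) and EGR1 of 4.15 (SE 0.51, adjusted p = 0.000687). Of the 12 YAP targets tested, 4 were called lower (AMOTL2, CYR61, AJUBA and, named after its value was seen, AXL), where 0.358% of all tested genes were. Of 17 immediate early genes 2 were called higher, EGR1 and FOS, where 0.564% of all tested genes were. Of the 36 replication genes, 3 were called lower, and of the 35 mitosis genes 7, where 0.358% of all tested genes were. Most members of these lists did not pass the test, although 34 and 35 of them had their lowest change in A549. None of the 21 sterol synthesis genes was called. MVD, with a term of 0.59 (SE 0.35, adjusted p = 0.679), and UHRF1, with a term of -2.04 (SE 0.40, adjusted p = 0.0181), show both outcomes. STC1, RHCG, NPTX1 and DIO2, low in the other lines, were not tested.

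**Figure D4:**
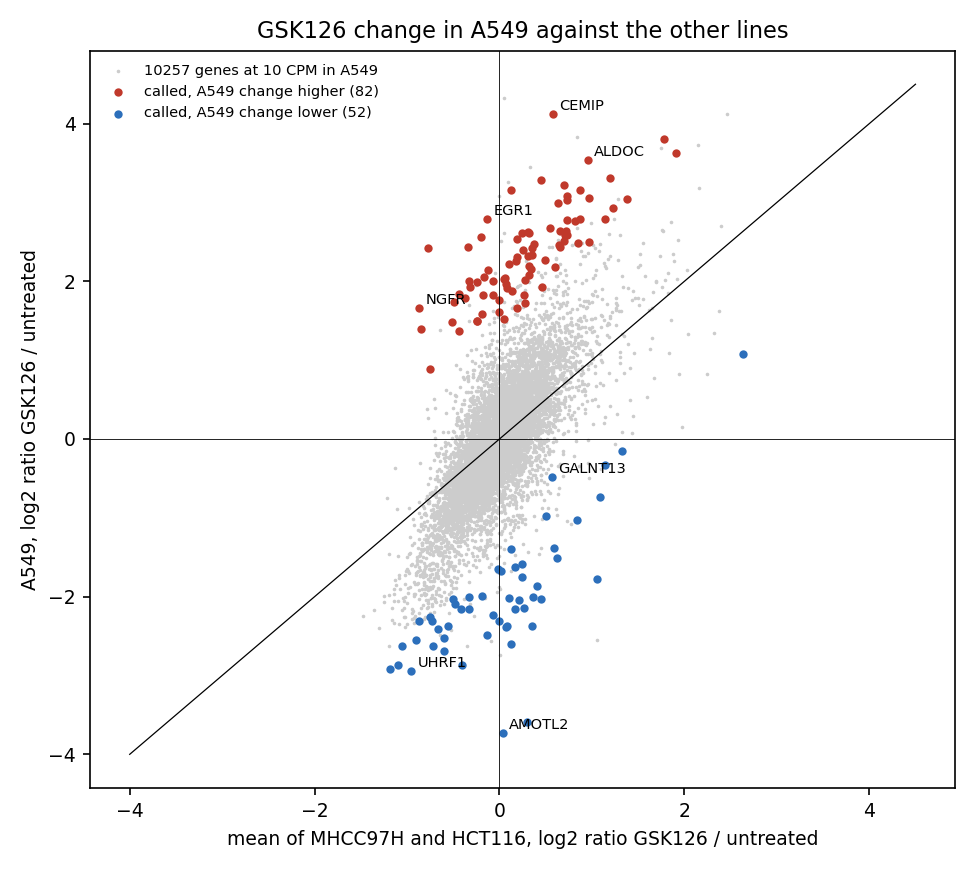
The log2 ratio of GSK126 to untreated in A549 (y axis) against the mean of MHCC97H and HCT116 (x axis) for the 10257 genes (grey). Genes called by the A549-by-GSK126 test are in red (82 with a higher A549 change) and blue (52 with a lower one), and the diagonal marks equal change. The test covered 14530 genes, and 64 of the red and 49 of the blue genes are among the 10257. Most called genes sit near 0 on the x axis and past 2-fold on the y axis, a position that the test itself favours.

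Few genes went from near 0 to above 1 CPM in A549. Under 0.1 CPM untreated and at least 1 CPM under GSK126, by library totals, were 19 genes. SLCO4C1, an organic anion transporter, had 1 read untreated and 132 reads (8.51 CPM) under GSK126, a ratio of 124 with a counting interval of 21.8 to 4921. The angiotensin receptor AGTR1 had 1 and 41 reads (ratio 38.4, 6.52 to 1554), and the neurotrophin receptor NGFR, a gene of the EZH2-repressed list, 1 and 37 reads (ratio 34.7, 5.85 to 1406). KCP, C2CD4A, SLAMF8 and FRY had 1 read untreated and 47, 29, 25 and 22 reads, and C11orf96 0 and 24 reads. AGTR1 had 55.6 and 55.3 CPM in MHCC97H, and NGFR 16.1 and 4.47 CPM in HCT116, so each was already expressed in another line. NGFR was at 127 CPM in the A549 TSA library, and whether RNA or reads of another library add to its 37 reads was not tested, so its level under GSK126 is uncertain. SLCO4C1 was higher under GSK126 than under TSA (3.18 CPM) or S2101 (1.70 CPM).

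The other treatments of A549 share its untreated library, so their changes are only set side by side with those of GSK126. NGFR had 2.38 CPM under GSK126, 11.7 CPM under S2101 and 127 CPM under TSA. Over 16 genes that were under 0.1 CPM untreated and at least 20 CPM under TSA, the summed level was 0.619 CPM untreated, 13.0 CPM under GSK126 (2.25% of the TSA sum) and 49.5 CPM under S2101 (8.59%). Whether it is carry-over between libraries or RNA of the cells was not tested. MVD had 27.1 CPM untreated, 139 CPM under GSK126, 85.9 CPM under S2101 and 52.2 CPM under TSA. In the same order, CEMIP had 0.619, 27.2, 4.18 and 6.10 CPM, and CYR61 102, 7.54, 38.9 and 224 CPM. AMOTL2 had 174, 12.2, 62.9 and 46.5 CPM. CDC20 had 176 CPM untreated, 27.8 CPM under GSK126, 66.3 CPM under S2101 and 148 CPM under TSA.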

How the data were processed

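Per the labels, libraries came from poly(A) RNA and a NEBNext Ultra kit. For every library the authors deposited a gene table of read counts, and of RPKM values that, per the file headers, the authors computed from gene length. The submitters' processing notes name the builds GRCh38 and hg38. The sources used here do not state the aligner, the counter or its strand setting. Overlapping and antisense genes are therefore uncertain. An entry that names no gene, present in 11 tables, was left out, and of 26 symbols turned into dates 25 were renamed. RefSeq matched 24948 genes (97.3%).

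Counts were scaled by TMM (factors 0.891 to 1.109; edgeR 4.0.16, R 4.3.3). Log2 changes used a pseudocount of 1, which understates the change of low genes, and a 2-fold threshold. The A549-by-GSK126 term was tested with edgeR's quasi-likelihood F test after filterByExpr (14530 genes, Benjamini-Hochberg adjusted; median prior degrees of freedom 18.1, common biological coefficient of variation 0.162). The code was run on simulated counts that held no differences between lines. That run therefore does not examine how the term's spread behaves in these data. Alternatives were other scalings, filters, pseudocounts, the deposited RPKM, DESeq2 1.42.0 and fits with more libraries; the 10 CPM rules in each line and in untreated A549 were added after the data were seen. Promoters used 1 RefSeq entry a gene.

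The members, the 58 gene lists and the rule for named genes were chosen with earlier results of these data known. The rule took the 15 largest changes in each direction, up to 4 members of each list past 2-fold or else the 2 largest, 5 called genes in each direction, 8 genes switched on, and 4 PRC2 genes (EZH2, EZH1, EED and SUZ12); some genes it took are not reported here, and genes outside it are named as such or give counts of a list.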

Additional observations from a re-analysis of the deposited data

Results flagged for a closer look

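These 49 genes, among those named by rule, had a GSK126 change in A549 that differed from the mean change of MHCC97H and HCT116 by edgeR's interaction test at an adjusted p under 0.05. The value after each is that difference in log2 units, A549 minus the other lines, and no cause was tested. Under S2101, set against the same untreated A549 library, each of the 49 changed in the same direction as under GSK126. The log2 changes under GSK126 and S2101 were 3.54 and 3.32 for ALDOC, 3.04 and 2.46 for GDF15, and -3.73 and -1.45 for AMOTL2. For GALNT13 they were -0.48 and -0.14. The part of the shared untreated library in this was not tested.

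Lower in A549 than in the other lines were the changes of the YAP and matrix genes CYR61 (-4.16), AMOTL2 (-3.87), AJUBA (-2.39) and CCDC80 (-2.82). The same held for the TGF-beta and WNT genes TGFB2 (-1.81), SMAD7 (-2.09) and DKK1 (-2.14). Cell cycle genes on this side were CDCA3 (-2.68), MYBL1 (-2.21), UHRF1 (-2.04), CDC20 (-1.94), E2F8 (-1.92), AURKB (-1.86), KIF20A (-1.81), MCM10 (-1.80), RRM2 (-1.78) and FAM111B (-1.78). Others were PLK2 (-2.48), H2AFX (-1.77) and TUBB4B (-1.93), and the genes of low level in the other lines LINC01279 (-4.13), GALNT13 (-3.86) and NTRK3 (-3.81). GALNT13 itself had a log2 change of only -0.48 in A549, under 2-fold. It had 0 and 0.066 CPM in MHCC97H and 0.117 and 1.29 CPM in HCT116, so its difference rests on few reads there. LINC01279 and NTRK3 were similarly low in the other lines, with log2 changes of -2.37 and -2.01 in A549.

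Higher in A549 were the changes of the stress and death genes TRIB3 (1.89), ERN1 (2.51), GDF15 (1.72), BBC3 (1.98) and BMF (2.40). Metabolic and trafficking genes on this side were ALDOC (2.99), HK2 (2.24), PDK1 (1.51), PLIN2 (1.81), RDH10 (2.87), WIPI1 (2.14) and RAB37 (3.42). Immediate early and ERK feedback genes were EGR1 (4.15), FOS (2.71), DUSP6 (2.48) and SPRY4 (1.58). Adhesion, secreted and vesicle genes were CEMIP (4.78), ICAM1 (2.84), ITGA2 (1.89), ITGAX (1.95), ITGB3 (2.77), NOV (3.41) and SYT1 (2.22). Of the genes with 1 read in untreated A549, SLCO4C1 (6.33), AGTR1 (5.11) and NGFR (6.82) were called, and these differences rest on that single read. Carry-over from the A549 TSA library, where NGFR had 127 CPM, was not tested.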

How the results depend on the processing

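The A549 counts of 729 higher and 754 lower genes became 1096 and 856 with at least 1 CPM or with no filter, 356 and 446 with at least 50 CPM, and 448 and 754 with at least 10 CPM in the untreated library (chosen after seeing the data). They stayed within 1.5 times under both pseudocounts, library totals, DESeq2 size factors and the deposited RPKM (540 to 891 higher, 526 to 781 lower). The counts called by the A549-by-GSK126 term, 82 and 52, became 156 and 114 with RLE size factors, 203 and 164 with no filter beyond 1 read, 89 and 74 with at least 10 CPM, and 26 and 29 with DESeq2, which called 51 of the same 134 genes. With 9 libraries (TSA left out), with all 12, and with 12 but A549 S2101, edgeR called 0 and 0 genes; genes at an unadjusted p under 0.05 numbered 684 higher and 751 lower, 214 and 312, and 246 and 303, against 780 and 654 in the fit of 6 libraries. Of the 134 genes, 134, 133 and 134 kept their direction in these fits, where A549 is also set against its own S2101 or TSA library and the other treatments enter the spread. No sign of a named gene's change reversed. Of 186 named genes, the change moved by more than the half-width of its counting interval in 41 under library totals, 67 with a pseudocount of 5 and 3 under DESeq2 size factors. Of 164 past 2-fold, 8, 19 and 4 then fell short of it, EED in each.

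No paired analysis was possible because each group held 1 library, beyond the pairing of treated and untreated libraries by line that the term's fit already holds. Leaving out a line of the term's fit leaves no residual degrees of freedom and so no test. Depth limits the folds of genes with few untreated reads, as the interval of 21.8 to 4921 for SLCO4C1 shows.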
